A study of Arabidopsis thaliana with 12 samples.

Results

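UDP-glycosyltransferases of the UGT superfamily were followed in Arabidopsis thaliana seedlings. Their genes were chosen by name, as all probe sets annotated with 1 gene whose symbol begins with UGT and a digit. The choice gave 47 genes, each with 1 probe set, among 22746 probe sets tested. The naming rule uses no measured value, but the family was chosen with earlier results of these data known. Its shares beside those of all probe sets are thus descriptive. They belong to 11 of the numbered UGT families, of which UGT71 with 9 genes and UGT76 with 8 were the best covered, and UGT80, UGT87 and UGT88 were each represented by 1 gene. RefSeq lists 58 Arabidopsis genes with such symbols (assembly TAIR10.1), so the 47 are most but not all of them.

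UGTs move a sugar from a UDP-sugar, usually UDP-glucose, onto a small molecule. In plants the acceptors include hormones such as auxin, cytokinins, abscisic acid and salicylic acid, and also flavonoids, phenylpropanoids, glucosinolate precursors, sterols and foreign compounds. Attaching the sugar generally makes a hormone inactive or storable, and makes other metabolites more soluble and ready for transport into the vacuole. The number after UGT names the family and the letter the subfamily, and members of a subfamily often lie side by side in the genome.

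RNA of whole seedlings 9 days old was measured on 12 Affymetrix arrays, 3 per group, labelled as biological replicates. The groups were Col (wild-type Col-0) and 35S:LOB-GR in the Col-0 background, each incubated with shaking for 4 h in MS medium with 5 µM dexamethasone (DEX) or without it (mock). The transgene encodes the boundary transcription factor LATERAL ORGAN BOUNDARIES (LOB) joined to the hormone-binding part of the glucocorticoid receptor (GR), which keeps the fusion out of the nucleus until a glucocorticoid is present. The 35S promoter drives it in most tissues, well beyond the organ boundaries where LOB is normally made. The numbers of transgenic lines and of seedlings per array are not given in the sources used here. Nothing in the labels says that the replicates were grown separately, so p-values measure the spread between these arrays.

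All values below are deposited RMA expression values on the log2 scale, and a difference of 1 is a 2-fold difference. Array medians lay between 5.89 and 5.97, within a group every pair of arrays had a correlation of at least 0.9922 across probe sets, and the number of arrays limits the precision. A gene is said to have risen, fallen or differed only at a limma adjusted p under 0.05, with adjustment over all 22746 probe sets. In 35S:LOB-GR, DEX replicate 1 deviated most from its group (root mean square deviation 0.166, against 0.0987 to 0.142 for the other arrays). Among the listed markers of organs, the leaf gene RCA was at 13.82 ± 0.05 in Col mock (SD, n = 3) and the root hair genes EXPA7 and EXPA18 at 5.19 ± 0.26 and 5.24 ± 0.13. None of these 3 was called in any comparison, and no flower, seed or pollen marker on the lists was among the named genes. Of the callus and wounding markers LBD16 and LBD29 were matched by name. LBD16 was lower in 35S:LOB-GR under DEX by -0.35 (limma adjusted p = 0.0165), the 1 marker called, and its part in the UGT results was not tested.

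Of the 47 UGT genes, 18 were called in at least 1 of 5 comparisons, or 38.3% against 27.8% of all probe sets, and 29 in none. The level of a probe set cannot be set against that of another, but 21 genes had a mean under 5 over the 12 arrays, in the lower part of a range that ran from 2.71 to 14.14. Only 2 of those 21, UGT74F1 and UGT71C3, were called anywhere. The within-group SD of the 47 genes had a median of 0.129 and ran from 0.0654 to 0.241. Group means of the 29 genes called nowhere spanned 0.0766 to 0.50, with a median span of 0.171. All 7 UGT73 genes and 4 of the 5 UGT84 and of the 5 UGT85 genes were among those 29.

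**Figure D1:**
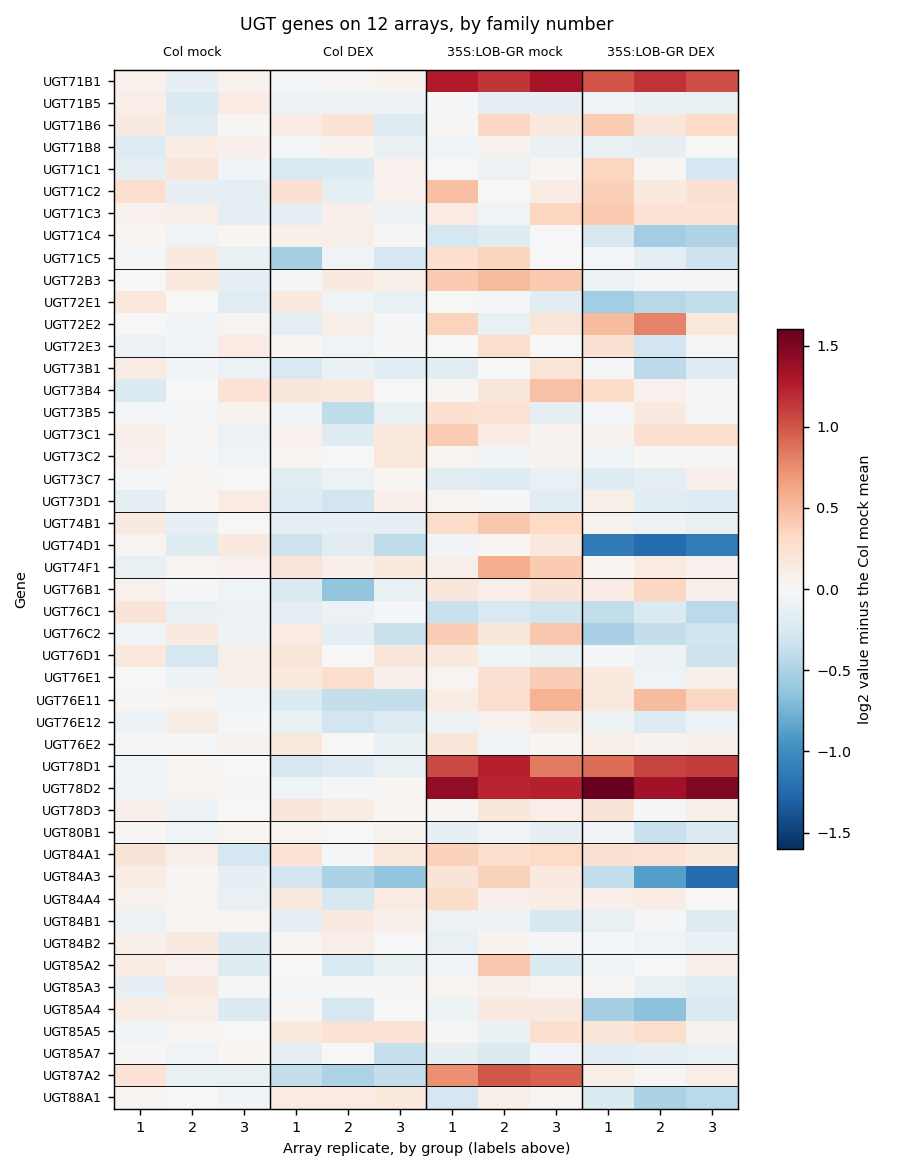
Each row is a UGT gene, ordered by family number with lines between families, and each column is an array, 3 per group. Colour gives the log2 value minus that gene's Col mock mean, red for higher and blue for lower. UGT71B1, UGT78D1 and UGT78D2 are red on all 35S:LOB-GR arrays, UGT87A2 is red on the 35S:LOB-GR mock arrays, and UGT74D1 is blue on the 35S:LOB-GR DEX arrays.

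DEX treatment of 35S:LOB-GR seedlings asks which genes change once the LOB fusion can enter the nucleus. Here 8 UGT genes fell and 0 rose, whereas 5.99% of all probe sets fell and 3.97% rose. The 8 genes make up 17.0% of the 47, against 9.97% of all probe sets called in either direction, and at an unadjusted p under 0.05 there were 13, or 27.7% against 21.7%. They came from 6 families, UGT72, UGT74, UGT76, UGT84, UGT85 and UGT87, and include enzymes known to act on auxin, cytokinin, hydroxycinnamates, monolignol precursors and glucosinolate precursors. UGT74D1 and UGT84A3 fell at least 2-fold. Over the 47 genes the median change was -0.07, against 0.02 over all probe sets, and 34 genes were lower in sign, or 72.3% against 45.5%. All 3 DEX arrays lay below all 3 mock arrays for 12 UGT genes, or 25.5%, against 11.0% of all probe sets, and above them for 0, against 11.8%. In whole seedlings fewer cells of a type and less RNA per cell cannot be told apart.

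UGT74D1, which glucosylates the auxins indole-3-butyric and indole-3-acetic acid, fell most. Its values were 7.61, 7.68 and 7.82 on the 35S:LOB-GR mock arrays and 6.53, 6.42 and 6.53 on the DEX arrays. The groups were more than 1 unit apart and did not overlap, and the change was -1.21 ± 0.10 (SE; limma adjusted p = 2.16e-06). In Col it read 7.69, 7.45 and 7.81 under mock and 7.32, 7.47 and 7.25 under DEX, where the lowest mock and the highest DEX array crossed. The Col change of -0.31 (95% interval -0.53 to -0.09) was not called (limma adjusted p = 0.228). The lowest of the 4 group means was thus 35S:LOB-GR with DEX, at 6.49 ± 0.06 (SD, n = 3). Among the 47 genes, the other listed auxin enzymes were not called. UGT84B1, which glucosylates indole-3-acetic acid, was at 0.04 ± 0.10 (SE) and its neighbour UGT84B2 at -0.03, both with means under 5. IAGLU, an auxin glucosyltransferase annotated under another symbol, fell and is described with the genes outside the naming rule.

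UGT84A3, a hydroxycinnamate glucosyltransferase that makes glucose esters of acids such as sinapate, fell by 1.08 ± 0.16 (SE; limma adjusted p = 0.000381). The 35S:LOB-GR mock arrays read 6.50, 6.66 and 6.45, and the DEX arrays 5.90, 5.41 and 5.06. Its DEX arrays were the most scattered of these genes (SD 0.42), yet each was below every mock array. In Col the arrays also separated, at 6.41, 6.31 and 6.16 under mock and 6.0, 5.78 and 5.68 under DEX, a change of -0.47 (95% interval -0.81 to -0.13) that was not called (limma adjusted p = 0.231). Its sisters UGT84A1 and UGT84A4, which lie on either side of it and carry the same activity, were at -0.11 and -0.10 in 35S:LOB-GR, neither called. UGT84A1 had a mean of 4.55 over the 12 arrays, under 5.

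UGT87A2, known as a regulator of flowering time and of stress responses, fell by 0.82 ± 0.11 (SE; limma adjusted p = 0.000105). It read 7.56, 7.83 and 7.77 on the 35S:LOB-GR mock arrays and 6.92, 6.85 and 6.94 on the DEX arrays. In Col its arrays were at 7.07, 6.71 and 6.71 under mock and 6.45, 6.34 and 6.45 under DEX, again without overlap. The 35S:LOB-GR DEX arrays therefore fell within the range of the Col mock arrays, and the Col DEX arrays were the lowest. The change in Col was -0.42 (95% interval -0.64 to -0.19; limma adjusted p = 0.118), not called over all probe sets.

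UGT76C2, one of the cytokinin N-glucosyltransferases, fell by 0.74 ± 0.12 (SE; limma adjusted p = 0.000752). The values were 6.75, 6.54 and 6.79 under mock and 5.83, 5.98 and 6.04 under DEX in 35S:LOB-GR. In Col they were 6.30, 6.50 and 6.27 under mock and 6.49, 6.20 and 6.0 under DEX, so the Col groups overlapped and the change was -0.13 (95% interval -0.38 to 0.13). Its neighbour UGT76C1, the other cytokinin N-glucosyltransferase, was at -0.04 in 35S:LOB-GR (95% interval -0.25 to 0.17; limma adjusted p = 0.869).

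The remaining 4 genes fell by smaller amounts. UGT85A4 went from 6.38, 6.61 and 6.61 to 5.94, 5.81 and 6.24, a change of -0.54 ± 0.13 (SE; limma adjusted p = 0.0136), while the Col arrays overlapped, at 6.58, 6.57 and 6.25 under mock and 6.50, 6.19 and 6.48 under DEX. The other 4 UGT85 genes, which form a run of neighbours elsewhere in the genome, lay between -0.15 and 0.12 and were not called. UGT72B3, a close relative of the monolignol and pollutant glucosyltransferase UGT72B1, went from 5.34, 5.42 and 5.34 to 4.82, 4.90 and 4.93, a change of -0.48 ± 0.09 (limma adjusted p = 0.00264). In Col it stayed at 4.92, 5.07 and 4.76 under mock and 4.90, 5.07 and 5.01 under DEX, a level in the lower part of the range.

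UGT72E1, which glucosylates coniferyl aldehyde, fell by 0.40 from 8.80 ± 0.09 to 8.40 ± 0.09 (SD, n = 3; limma adjusted p = 0.0219). Its sisters act on the monolignols coniferyl and sinapyl alcohol. UGT72E2 was at 0.34 ± 0.14 (SE; limma adjusted p = 0.171), the largest positive value of the 47, and UGT72E3 at -0.12, neither called. The mean of UGT72E3 over the 12 arrays was 4.63, under 5. UGT74B1, the S-glucosyltransferase of the glucosinolate core pathway, fell by 0.40 from 8.73 ± 0.07 to 8.34 ± 0.09 (limma adjusted p = 0.00923). UGT74F1, which glucosylates salicylic acid, was at -0.28 and was not called (limma adjusted p = 0.142). Just outside the threshold, UGT88A1 was at -0.34 ± 0.10 (limma adjusted p = 0.0504) and UGT71C5, which makes the glucose ester of abscisic acid, at -0.38 ± 0.13 (limma adjusted p = 0.0881).

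With any 1 array left out, 6 to 9 UGT genes were called, 9 of them without DEX replicate 1 of 35S:LOB-GR. The calls of 2 genes ended. The adjusted p of UGT72E1 was 0.084 without mock replicate 1, 0.0706 without mock replicate 2, 0.0675 without DEX replicate 1 and 0.051 without DEX replicate 2 of 35S:LOB-GR, and that of UGT85A4 was 0.0555 without mock replicate 2 and 0.0673 without DEX replicate 2.

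**Figure D2:**
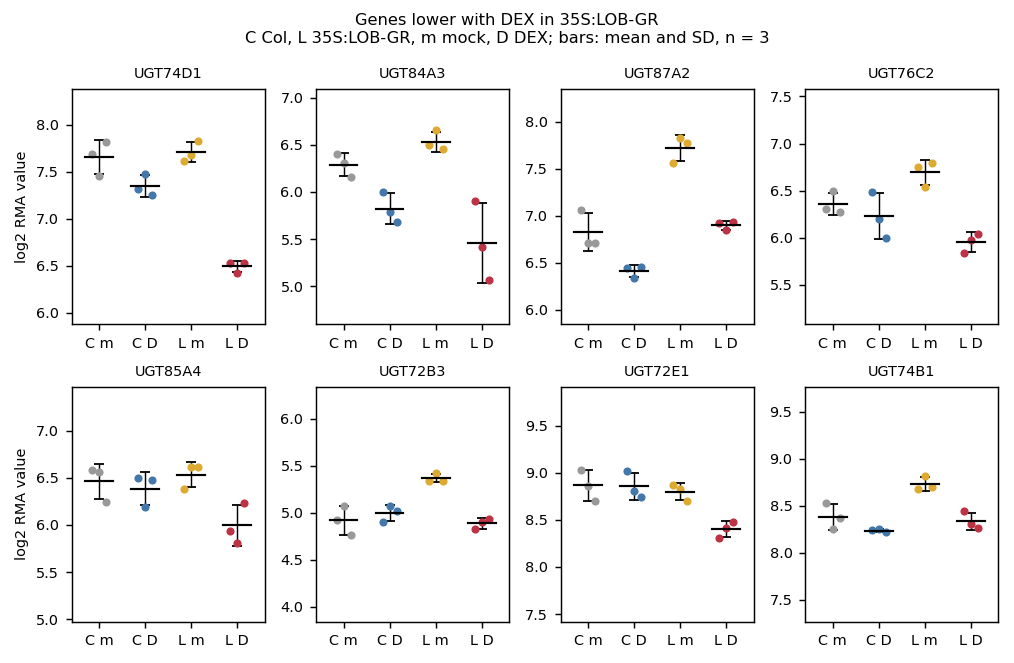
Points are log2 RMA values of single arrays in the 4 groups for the 8 genes that fell with DEX in 35S:LOB-GR, with bars at the mean and SD (n = 3). Each panel spans the same range on its own level. In every panel the 35S:LOB-GR DEX points lie below the 35S:LOB-GR mock points, and in UGT84A3 and UGT87A2 the Col DEX points also lie below the Col mock points.

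The response to DEX in Col seedlings shows what the treatment does without the fusion. There 0 UGT genes were called by limma, against 0.0572% of all probe sets (0.0132% higher and 0.0440% lower). At an unadjusted p under 0.05 there were 7, or 14.9% of the 47 against 12.7% of all probe sets, and all 7 were lower with DEX: UGT74D1, UGT84A3, UGT87A2, UGT71C5, UGT76B1, UGT76E11 and UGT76E12. Their changes ran from -0.21 for UGT76E12 to -0.47 for UGT84A3. The Col DEX arrays lay below the Col mock arrays without overlap for 8 UGT genes, or 17.0% against 10.6% of all probe sets, and above them for 3, or 6.38% against 10.3%. Of the 8 genes that fell in 35S:LOB-GR, 7 were also negative in Col and UGT72B3 was at 0.08 (95% interval -0.12 to 0.27). UGT84A3 was called lower when the 6 Col arrays were fitted alone, and UGT87A2 when arrays were weighted by their quality.

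The difference of the responses tests which of these changes depended on the transgene. Only UGT74D1 and UGT72B3 were called, both with the lower response in 35S:LOB-GR. That is 2 of 47 genes, or 4.26%, close to the 4.77% of all probe sets (2.95% lower and 1.82% higher). At an unadjusted p under 0.05 there were 11, all lower, or 23.4% against 16.6%. The response of UGT74D1 was lower by a log2 difference of -0.91 ± 0.15 (SE; limma adjusted p = 0.00177), and that of UGT72B3 by -0.56 ± 0.13 (SE; limma adjusted p = 0.0215). UGT76C2 was just outside, at -0.61 ± 0.17 (SE; limma adjusted p = 0.0528).

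For the other fallers the response was not called different. The difference was -0.61 (95% interval -1.09 to -0.12) for UGT84A3, -0.40 (-0.72 to -0.08) for UGT87A2, -0.46 (-0.86 to -0.07) for UGT85A4, -0.39 (-0.70 to -0.08) for UGT72E1 and -0.25 (-0.52 to 0.02) for UGT74B1. These genes were taken because they fell in 35S:LOB-GR, and the difference uses the same arrays, so its sign over the 8 genes is no separate evidence. The adjusted test called UGT74D1 and UGT72B3 only.

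The count of called differences moved with single arrays. Leaving out mock replicate 1 of 35S:LOB-GR gave 4 and added UGT74F1 and UGT88A1, and leaving out its DEX replicate 1 gave 4 and added UGT84A3 and UGT88A1. Only 1, UGT74D1, was called without mock replicate 3 or DEX replicate 2 of Col. The adjusted p of UGT72B3 was then 0.0524 and 0.0645. Without DEX replicate 3 of Col or mock replicate 2 of 35S:LOB-GR it was 0.0509 and 0.053, and UGT76C2 was called in its place. UGT74D1 was called in each of these fits, at -0.99 to -0.81.

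**Figure D3:**
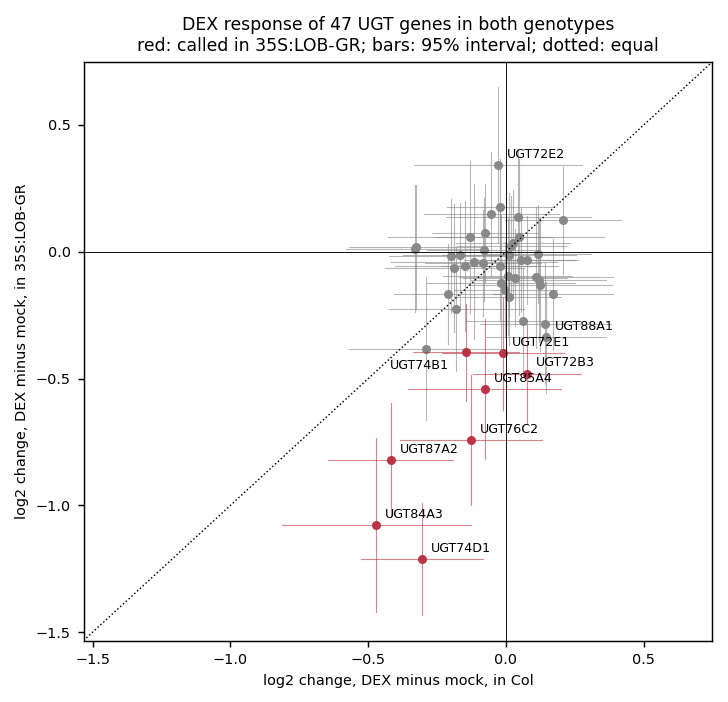
Each point is 1 of the 47 UGT genes, with the log2 change from mock to DEX in Col on the horizontal axis, that in 35S:LOB-GR on the vertical axis, and 95% intervals as bars. The dotted line marks equal changes, and red marks the 8 genes called in 35S:LOB-GR, all of which lie below the line. UGT74D1 (-0.31 and -1.21) and UGT84A3 (-0.47 and -1.08) lie lowest.

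Comparing the lines under mock asks what the transgene line differed in without DEX. Here 7 UGT genes were higher in 35S:LOB-GR and 0 lower, against 5.76% and 5.10% of all probe sets, and the 7 are 14.9% of the 47, against 10.9% in either direction. At an unadjusted p under 0.05 there were 12, or 25.5% against 23.2%. The largest differences were in the flavonoid enzymes UGT78D2 and UGT78D1 and in UGT71B1, each at least 2-fold. UGT87A2, UGT72B3, UGT74F1 and UGT74B1 followed. UGT76C1 was at -0.31, not called (limma adjusted p = 0.0599), but was called lower when quantile normalization was repeated or arrays were weighted. The median over the 47 genes was 0.09, against 0.00 over all probe sets. All 3 arrays of 35S:LOB-GR were above all 3 of Col for 13 UGT genes, or 27.7% against 14.8%, and below for 2, or 4.26% against 13.0%. The labels give no sowing, harvest or array batch, so these cannot be told apart from genotype.

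UGT78D2, which puts glucose on flavonols and anthocyanidins, differed most. Under mock it read 6.86, 6.96 and 6.93 in Col and 8.34, 8.13 and 8.15 in 35S:LOB-GR, a difference of 1.29 ± 0.09 (SE; limma adjusted p = 2.65e-07). Under DEX the values were 6.84, 6.89 and 6.95 in Col and 8.50, 8.25 and 8.40 in 35S:LOB-GR, a difference of 1.49 ± 0.09 (SE; limma adjusted p = 1.97e-08). The genotypes stood apart by over 1 unit with either treatment, and DEX itself moved the gene by 0.18 in 35S:LOB-GR (95% interval -0.02 to 0.37) and by -0.02 in Col (-0.21 to 0.17), neither called.

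UGT78D1, the flavonol rhamnosyltransferase, was also high on every 35S:LOB-GR array. It read 7.43, 7.50 and 7.48 in Col and 8.53, 8.72 and 8.30 in 35S:LOB-GR under mock, and 7.20, 7.26 and 7.35 against 8.36, 8.55 and 8.59 under DEX. The differences were 1.04 ± 0.11 (limma adjusted p = 1.2e-05) and 1.23 ± 0.11 (limma adjusted p = 6.63e-07). With DEX its change was -0.02 in 35S:LOB-GR (95% interval -0.24 to 0.21). UGT78D3, the flavonol arabinosyltransferase with 1 gene between it and UGT78D2, had a mean of 3.58 over the 12 arrays, well under 5, and was at 0.10 under mock and -0.02 under DEX, neither called. At that level a difference could go undetected.

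UGT71B1 read 6.64, 6.43 and 6.62 in Col and 7.83, 7.70 and 7.88 in 35S:LOB-GR under mock, a difference of 1.24 ± 0.09 (limma adjusted p = 3.39e-07). Under DEX it read 6.53, 6.58 and 6.62 against 7.57, 7.72 and 7.59, a difference of 1.05 ± 0.09 (limma adjusted p = 5.8e-07). The groups never overlapped between genotypes and DEX was not called in either. Its subfamily members UGT71B6, an abscisic acid glucosyltransferase, and UGT71B8 were at 0.17 and -0.03 under mock, and UGT71B5 at -0.10, none of them called. Their means over the 12 arrays were 3.98, 4.12 and 4.64, under 5, where a difference could go undetected.

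UGT87A2 was higher in 35S:LOB-GR by 0.89 ± 0.11 under mock (limma adjusted p = 5.2e-05) and still by 0.49 ± 0.11 under DEX (limma adjusted p = 0.00341). UGT72B3 was higher by 0.45 ± 0.09 under mock (limma adjusted p = 0.0045) and at -0.11 under DEX, not called. UGT74B1 was higher by 0.35 under mock (limma adjusted p = 0.0198) and at 0.10 under DEX, not called. These 3 genes also fell with DEX in 35S:LOB-GR, but both comparisons use the same 35S:LOB-GR mock arrays, so a high mock mean enters both. For UGT74B1 the mock call ended without mock replicate 2 or 3 of Col (limma adjusted p = 0.0991 and 0.0598) or mock replicate 2 of 35S:LOB-GR (0.0834).

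UGT74F1 was higher by 0.36 under mock, from 4.74 ± 0.10 to 5.10 ± 0.26 (SD, n = 3), at a limma adjusted p of 0.0498 and a dim level. Its call ended without any of the 6 Col arrays, mock replicate 2 or 3 of 35S:LOB-GR or DEX replicate 2 or 3 of 35S:LOB-GR, left out singly, at 0.0556 to 0.22. Without any 1 array, 5 to 8 UGT genes were called under mock.

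Under DEX the genotype comparison brings the transgene line and the active fusion together. Here 8 UGT genes were higher in 35S:LOB-GR and 5 lower, or 17.0% and 10.6% of the 47, against 11.7% and 9.74% of all probe sets, and 21.5% in either direction. The 4 genes UGT78D1, UGT78D2, UGT71B1 and UGT87A2 were higher with either treatment. UGT76E11, UGT72E2, UGT76B1 and UGT71C3 were called higher under DEX alone, although the change from mock to DEX was not called for any of them in either genotype, nor was the difference of the responses. The lower genes were UGT74D1, UGT88A1, UGT71C4, UGT72E1 and UGT85A4, of which UGT74D1, UGT72E1 and UGT85A4 also fell with DEX in 35S:LOB-GR. Those comparisons share the 35S:LOB-GR DEX arrays. All 3 arrays of 35S:LOB-GR were above those of Col for 10 UGT genes, 21.3% against 18.5% of all probe sets, and below for 8, or 17.0% against 15.3%.

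UGT76E11, a flavonoid glucosyltransferase linked to stress tolerance, read 6.25, 6.08 and 6.09 in Col and 6.64, 6.97 and 6.80 in 35S:LOB-GR under DEX, a difference of 0.66 ± 0.11 (limma adjusted p = 0.000598). Under mock it read 6.49, 6.51 and 6.40 against 6.59, 6.75 and 7.02, at 0.32 and not called (limma adjusted p = 0.0958). The genotypes stood apart with both treatments, and under DEX the Col arrays were the lowest. UGT76B1, which glucosylates isoleucic acid and salicylic acid, had the same order of group means. It read 5.57, 5.48 and 5.44 in Col mock, 5.26, 4.86 and 5.37 in Col DEX, 5.67, 5.59 and 5.70 in 35S:LOB-GR mock and 5.62, 5.82 and 5.57 in 35S:LOB-GR DEX. Under DEX the difference was 0.51 ± 0.12 (limma adjusted p = 0.00576).

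UGT72E2, the coniferyl alcohol glucosyltransferase, read 6.26, 6.50 and 6.38 in Col and 6.92, 7.20 and 6.57 in 35S:LOB-GR under DEX. The difference of 0.52 ± 0.14 (limma adjusted p = 0.0169) was no longer called without DEX replicate 1 of Col (0.0688) or DEX replicate 2 of 35S:LOB-GR (0.0886). Under mock it read 6.41, 6.37 and 6.45 against 6.77, 6.29 and 6.60, with overlap. Its sister UGT72E1 was lower under DEX, by -0.46 ± 0.10 (limma adjusted p = 0.00507), so the coniferyl aldehyde and coniferyl alcohol enzymes differed in opposite directions. UGT71C3, which glucosylates methyl salicylate, was at 0.34 (limma adjusted p = 0.0472) from a dim 4.25 ± 0.13 in Col DEX, and the call ended without mock replicate 1 or 2 or DEX replicate 1 or 3 of Col, or without mock replicate 1 or any DEX replicate of 35S:LOB-GR, at 0.0545 to 0.158.

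UGT74D1 was lower under DEX by a log2 difference of -0.85 ± 0.10 (limma adjusted p = 2.25e-05). UGT88A1 read 10.23, 10.23 and 10.26 in Col and 9.87, 9.59 and 9.66 in 35S:LOB-GR under DEX, a difference of -0.53 ± 0.10 (limma adjusted p = 0.00147). Under mock it read 10.14, 10.09 and 10.06 against 9.83, 10.17 and 10.14, with overlap. With DEX, Col was slightly up (0.14) and 35S:LOB-GR down (-0.34), neither change called. The difference of responses of UGT88A1, -0.48, was not called either (limma adjusted p = 0.0772). Its fall in 35S:LOB-GR was called with repeated quantile normalization, with dim probe sets left out, with an intensity trend or with array weights. Array weights also called its difference of responses. UGT71C4 read 7.98, 7.99 and 7.91 in Col and 7.65, 7.35 and 7.42 in 35S:LOB-GR under DEX, at -0.49 ± 0.10 (limma adjusted p = 0.00181), and 7.93, 7.84 and 7.93 against 7.63, 7.70 and 7.90 under mock, not called. For UGT71C4 the difference of responses was -0.34, not called (limma adjusted p = 0.216). UGT85A4 was at -0.39 (limma adjusted p = 0.0426). Its call ended without mock replicate 1 (0.0501), DEX replicate 1 (0.142) or DEX replicate 3 (0.136) of Col, or DEX replicate 1 (0.0882) or 2 (0.17) of 35S:LOB-GR, and UGT71C3 and UGT85A4 also lost theirs with a replicate block (limma adjusted p = 0.0696 and 0.0588).

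**Figure D4:**
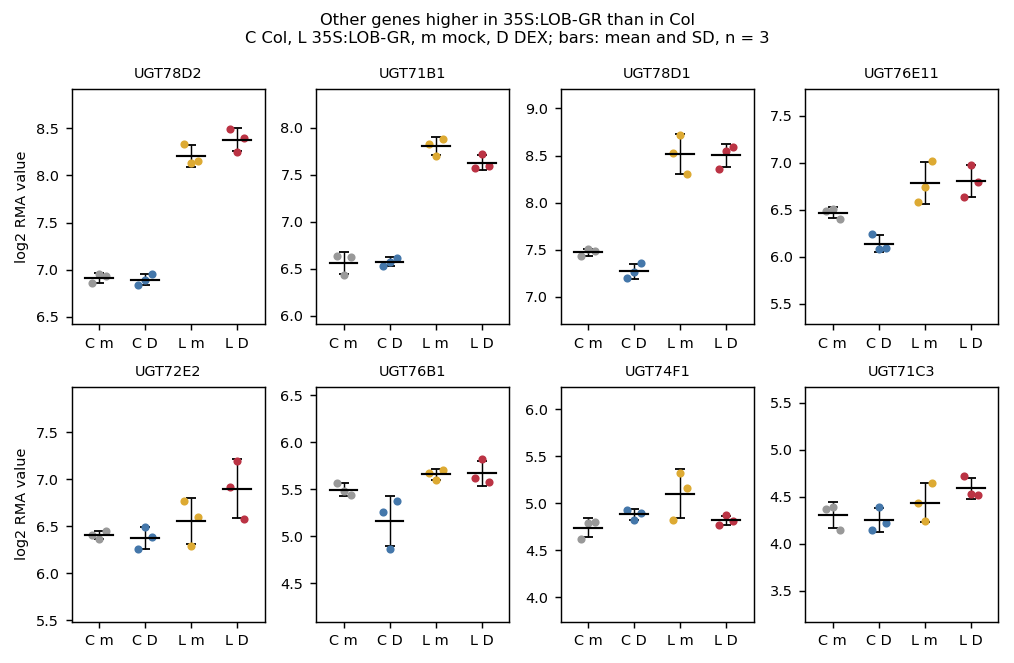
Points are log2 RMA values of single arrays for the 8 UGT genes that were higher in 35S:LOB-GR than in Col under mock or DEX and did not fall with DEX in 35S:LOB-GR, with bars at the mean and SD (n = 3). Each panel spans the same range on its own level. In UGT78D2, UGT71B1 and UGT78D1 all 6 arrays of 35S:LOB-GR lie above all 6 of Col, and in the other panels the separation is smaller or depends on the treatment.

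Ordered by what the enzymes act on, the groups were mixed. The role lists held genes with a known acceptor or role, or close relatives of them, and are not complete, UGT76E11 and UGT71B1 being on none. They are counted here only over the 47 genes, so UGTs annotated under other symbols, such as the auxin enzyme IAGLU, are outside the counts. Over all probe sets 5.99% fell with DEX in 35S:LOB-GR, while 5.76% were higher in that line under mock and 11.7% were higher under DEX. Of 3 abscisic acid enzymes, UGT71B6, UGT71B8 and UGT71C5, none was called in any comparison. UGT71B6 and UGT71B8 had means under 5, where a difference could go undetected. With DEX in 35S:LOB-GR, UGT74D1 fell of 3 auxin enzymes and UGT76C2 of 2 cytokinin enzymes. Among 4 salicylate and benzoate enzymes none was called with DEX, and 1 was higher under mock (UGT74F1) and 2 under DEX (UGT76B1 and UGT71C3) in 35S:LOB-GR. In the flavonoid list 2 of 5, UGT78D1 and UGT78D2, were higher in 35S:LOB-GR with either treatment and none was called with DEX. Among 8 genes on the phenylpropanoid list 3 fell with DEX in 35S:LOB-GR, UGT84A3, UGT72E1 and UGT72B3, the last a relative of UGT72B1. UGT84A1 was counted on both this list and the flavonoid list. Of 5 genes on the stress and defence list UGT87A2 was called and UGT73B4, UGT73B5, UGT73D1 and UGT85A5 were not. The means of UGT73B4, UGT73B5 and UGT73D1 were also under 5. The sterol glucosyltransferase UGT80B1, also known as TRANSPARENT TESTA 15 for its seed coat, was called in none, and for the brassinosteroid enzymes UGT73C5 and UGT73C6 no value is given here.

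No run of neighbouring UGT genes was called as a whole. By RefSeq gene order, 30 of the 47 lie in 13 runs of 2 to 4 UGT genes with at most 1 other protein-coding gene between them. In 5 runs at least 1 gene was called in some comparison, and in 0 of the 13 were all genes of the run called the same way. In all, 6 of the 30 genes were called in at least 1 comparison, against 27.8% of all probe sets. With few of the 30 called, and some with means under 5, the 0 whole runs say little about neighbours. UGT84A3 fell between UGT84A1 and UGT84A4, UGT76C2 beside UGT76C1, and UGT78D2 was higher in 35S:LOB-GR where UGT78D3, with 1 gene between them, was not called. In the run of UGT71C5, UGT71C4 and UGT71C3, the genotype difference under DEX was 0.12, -0.49 and 0.34. Differences between neighbours were not tested. All 47 probe sets carry the plain suffix for sets designed against a single gene, and signal from a near copy was not tested.

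**Figure D5:**
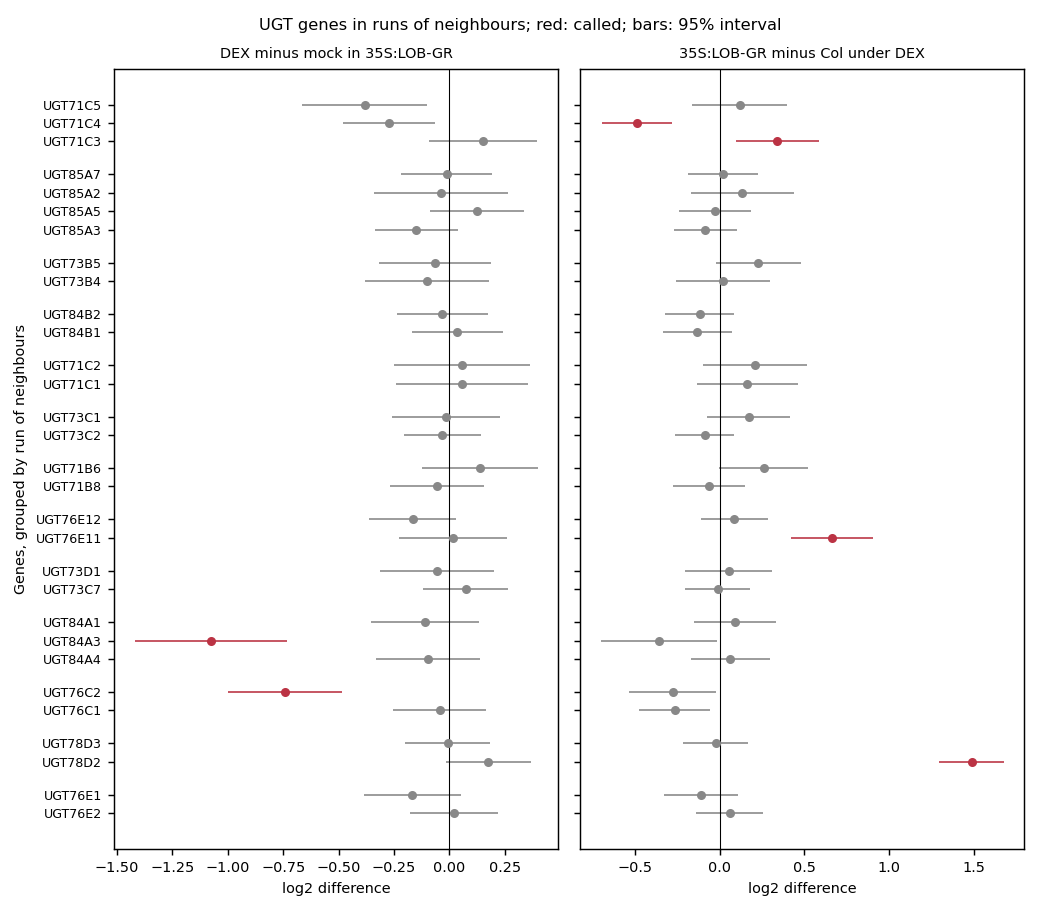
Points are log2 differences of the 30 UGT genes that lie in runs of neighbours, with 95% intervals, for DEX minus mock in 35S:LOB-GR (left) and for 35S:LOB-GR minus Col under DEX (right). Genes of a run are set together, and red marks called genes. UGT84A3 and UGT76C2 lie at -1.08 and -0.74 on the left beside neighbours near 0, and UGT78D2 lies at 1.49 on the right with UGT78D3 at -0.02.

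UGTs outside the naming rule gave further values. Of 5 genes annotated under another symbol, IAGLU, an indole-3-acetate glucosyltransferase, fell by 1.15 ± 0.17 with DEX in 35S:LOB-GR, from a mean of 8.34 to 7.19 (limma adjusted p = 0.000448), and was at 0.04 in Col. Its responses differed by -1.19 ± 0.25 (limma adjusted p = 0.0106). GT72B1 (UGT72B1), the monolignol and pollutant glucosyltransferase related to UGT72B3, was at 0.17 with DEX, not called, and higher in 35S:LOB-GR under DEX by 0.51 (limma adjusted p = 0.00757). UF3GT (UGT79B1), which adds xylose to anthocyanins, the sterol enzyme SGT (UGT80A2) and AT5G54010 (UGT79B6) were called in no comparison. Another 3 probe sets cover several genes. The shared set of UGT73B2 and UGT73B3, whose products act on flavonoids and in stress responses, fell by 0.73 with DEX in 35S:LOB-GR (limma adjusted p = 0.000293) and was higher there by 0.91 under mock (limma adjusted p = 4.15e-05), and its signal cannot be split between the genes. In Col it was at -0.41 with DEX, without overlap of the arrays but not called (limma adjusted p = 0.127), and its difference of responses was not called (limma adjusted p = 0.3). The set of UGT89B1 and AT1G73885 was higher in 35S:LOB-GR under mock by 0.51 (limma adjusted p = 0.0197), and that of UGT71D1 and AT2G29710 was called in no comparison.

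Genes of the pathways that feed these enzymes were thinly covered by name. Only symbols that matched a probe set annotated with 1 gene were counted, so a gene without a match may still be on the array. Of 27 symbols listed for flavonoid and anthocyanin synthesis only DFR, the dihydroflavonol reductase, was matched. It was at 0.13 with DEX in 35S:LOB-GR and 0.04 for the genotypes under mock, neither called. Of 23 phenylpropanoid symbols 3 were matched and none was called with DEX. Among these ALDH2C4, the dehydrogenase that makes sinapate and ferulate, was higher in 35S:LOB-GR by 0.50 under mock (limma adjusted p = 0.0114) and by 0.44 under DEX (limma adjusted p = 0.0143). The 24 symbols for nucleotide sugar supply gave 0 matches. BCAT4, an aminotransferase of methionine chain elongation, was the only match of 20 glucosinolate symbols. It fell by 0.91 ± 0.15 with DEX in 35S:LOB-GR (limma adjusted p = 0.000961), and its difference of responses was -0.49, not called. Of 14 glutathione transferases, another family that tags small molecules, 2 fell with DEX in 35S:LOB-GR and 0 rose, against 5.99% and 3.97% of all probe sets, namely GSTU20 (-0.92; limma adjusted p = 0.000108) and GSTU27 (-0.72; limma adjusted p = 0.00156). In Col they were at -0.22 and -0.43 with DEX, neither called. The difference of responses was called for GSTU20 (-0.70, limma adjusted p = 0.0269) but not for GSTU27 (-0.30, limma adjusted p = 0.471).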

How the data were processed

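Each array has 1 deposited log2 value for a probe set, which per the submitters' processing notes came from RMA, in a version not stated. RMA sets all arrays to a common distribution, which would reduce a shift shared by most transcripts. No detection calls were used. From 22810 probe sets 64 Affymetrix controls were left out. Genes were named from the platform annotation and placed in order with RefSeq (TAIR10.1), in which all 47 UGT genes were found. A limma model (version 3.58.1, R 4.3.3) gave each of the 4 groups a mean, with no replicate block (eBayes on 12 arrays, 8 residual and 6.86 prior degrees of freedom). Tests were two-sided, adjusted by the Benjamini-Hochberg method over 22746 probe sets. The fit was tested on simulated data. The genes and lists were chosen with earlier results of these data known, and no set test was made. Values of every array are given for the 14 UGT genes with the largest called difference. The symbol CHI of the flavonoid list matched a chitinase and was left out. Deviations of same-numbered arrays from their group means had correlations of -0.228 to 0.13. With 3 arrays per group these cannot show whether a number marks a shared round, and the main fit did not pair the arrays. Alternatives were other normalizations, filters, spread estimates, array weights, thresholds, leaving out each array, and a replicate block.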

Additional observations from a re-analysis of the deposited data

Results flagged for a closer look

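The response of UGT74D1 to DEX was lower in 35S:LOB-GR than in Col by a log2 difference of -0.91, and that of UGT72B3 by -0.56. They are listed here because the test of the difference between the genotypes' responses called them (limma adjusted p = 0.00177 and 0.0215). For UGT72B3 the highest group mean was 35S:LOB-GR mock, at 5.37, against 4.92 in Col mock, 4.99 in Col DEX and 4.89 in 35S:LOB-GR DEX. Its call ended in 4 of the fits that left out a single array.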

How the results depend on the processing

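None of the 30 called gene differences named above reversed under any of up to 20 alternatives, and 22 stayed called under each of them. The other 8 lost their call under some, most of them when a single array was left out, and the cause was not tested. With any 1 array left out, the number of UGT genes called ran from 6 to 9 for DEX in 35S:LOB-GR, was 0 throughout for DEX in Col, and ran from 1 to 4 for the difference of responses, 5 to 8 for the genotypes under mock and 10 to 13 under DEX. Array weights gave 5 called differences of responses and 1 called gene in Col, and fitting the Col arrays alone also gave 1. A 2-fold minimum left 2 genes for DEX in 35S:LOB-GR, 0 for the difference of responses, and 3 for the genotypes under mock and 3 under DEX. An adjusted p under 0.01 left 1 difference of responses. The shares of all probe sets under these alternatives are not given here, so these counts show only how far the calls held. Without adjustment the counts were 13 and 7 for DEX in 35S:LOB-GR and Col, 11 for the difference and 12 for the genotypes under mock. With the replicate block the counts were 8, 0, 2, 7 and 11 in the order of the report, against 13 for the last without it. Dim signals limit the 21 genes with a mean under 5.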
